A study of Drosophila melanogaster with 12 samples.

Results

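Fatp1 and NaPi-III are a pair of Drosophila melanogaster transporter genes, described here in cultured cells that the sample titles call Kc. The cells received RNAi against CP190 or, as control, against beta-galactosidase, and were collected without or with the insect steroid hormone 20-hydroxyecdysone (20HE). Relative to 0 h, Fatp1 RNA was higher at 3 h of 20HE and NaPi-III RNA was lower at 48 h, while from 3 h to 48 h both declined. They are 2 of 16637 transcripts measured, Fatp1 as FBtr0080133 and NaPi-III as FBtr0076213. They were chosen by their measured log2 changes with 20HE, Fatp1 at 3 h and NaPi-III at 48 h, so their hormone responses are given below as a description with no test. The 2 RNAi arms were tested against each other at single times and over the times. The choice did not use this contrast, but these tests share arrays with the 20HE changes that it did use. The difference of the hormone responses between the arms was also tested, but it contains the 20HE changes by which the genes were chosen, so that test is not independent of the choice.

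Fatp1 encodes a fatty acid transport protein of the SLC27 family. Such proteins take up long-chain fatty acids and activate them by joining them to coenzyme A. NaPi-III encodes a sodium-dependent phosphate cotransporter of the PiT type, which brings inorganic phosphate into the cell. 20HE acts through a nuclear receptor made of EcR and USP. It switches on a first wave of genes directly, many of which encode transcription factors, and later waves follow with changes in cell shape and growth.

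Kc cells are an embryo-derived D. melanogaster line, grown here in serum-free medium. The samples were treated with RNAi that targets the insulator protein CP190 and collected with no 20HE (0 h), after 3 h or after 48 h. The control samples received RNAi against beta-galactosidase and were collected at the same 3 times. Each of the 6 groups holds 2 samples that the labels call biological replicates, on 12 single-colour arrays. The labels give neither the dose of 20HE nor the length of the RNAi treatment. The extraction protocol also names Mbn2 cells, while the titles name Kc cells, and which line was used was not checked on the arrays. How far the RNAi lowered CP190 RNA was not analysed.

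The values are RMA intensities on a linear scale, 1 per transcript and array. Array medians lay between 1136 and 1227 and replicate arrays correlated across transcripts by 0.994 to 0.997. A random-sequence control, a measure of background, lay between 413 and 425. Both transporters were well clear of it on every array, Fatp1 at 10.8 to 32.6 times its level and NaPi-III at 9.55 to 24.6 times. They were also far below the brightest transcript of any array (61018 to 65523), so neither end of the scale was reached. On bulk RNA, less RNA per cell and fewer cells expressing a gene cannot be told apart.

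Fatp1 was low at 0 h, high at 3 h and low again at 48 h in both RNAi arms. In CP190 RNAi cells its intensity was 5448 and 5754 at 0 h, 12960 and 13124 at 3 h, and 5244 and 6246 at 48 h. In control RNAi cells it was 4571 and 6239 at 0 h, 12954 and 13859 at 3 h, and 6132 and 6834 at 48 h. All 4 of the 3 h arrays lay above all 8 of the others, and the 0 h and 48 h arrays overlapped. In rank, Fatp1 stood above 91.5 to 92.4% of transcripts at 3 h, against 74.2 to 79.9% at 0 h and 77.0 to 81.6% at 48 h.

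The size of the early Fatp1 rise was 1.22 ± 0.13 on the log2 scale (limma SE) in CP190 RNAi cells, or 2.33-fold. It was 1.33 ± 0.13 in control RNAi cells, or 2.51-fold. The widest gap between replicates of a Fatp1 group, 0.45 on the same scale, was that of control RNAi at 0 h. Leaving out control 0 h replicate 1 gave a control rise of 1.10, and leaving out control 0 h replicate 2 gave 1.55. Taken by replicate number, the rise was 1.250 and 1.190 in CP190 RNAi cells and 1.503 and 1.151 in control RNAi cells.

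From that peak the Fatp1 signal then dropped back. The change between 3 h and 48 h was -1.19 ± 0.13 in CP190 RNAi cells and -1.05 ± 0.13 in control RNAi cells. At 48 h the level differed from 0 h by 0.03 ± 0.13 in CP190 RNAi cells and by 0.28 ± 0.13 in control RNAi cells. The control value rests on the uneven 0 h pair. It was 0.05 without control 0 h replicate 1 and 0.50 without control 0 h replicate 2. The 3 h and 48 h changes of an arm share its 0 h arrays, so they are not independent of each other.

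**Figure D1:**
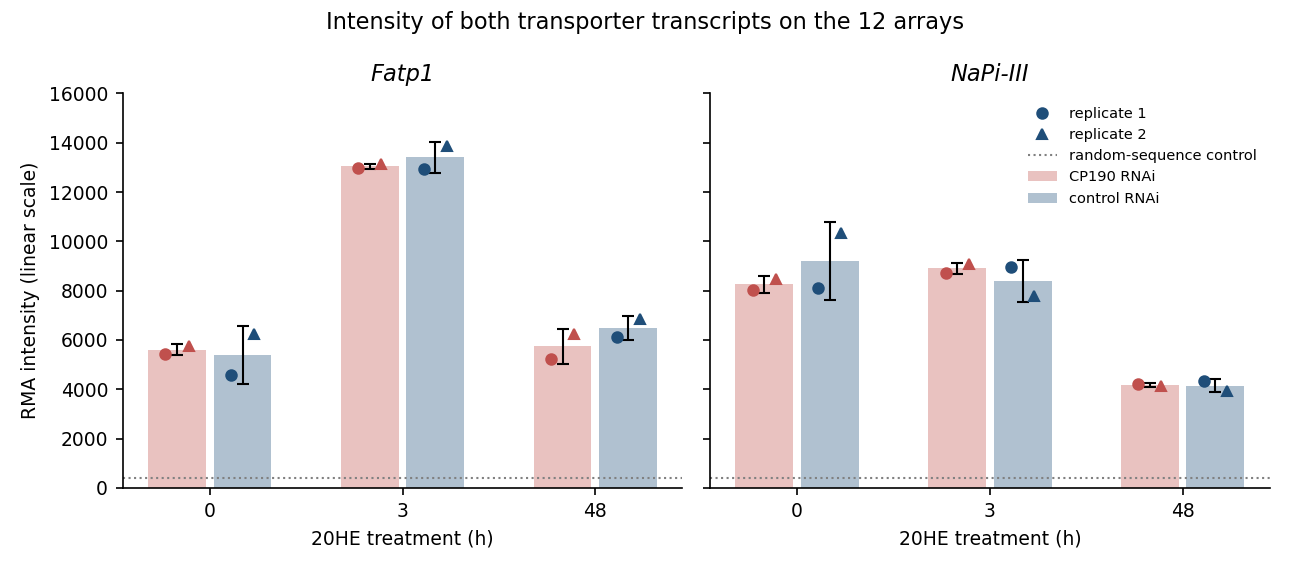
RMA intensity (linear scale) of Fatp1 (left) and NaPi-III (right) by hours of 20HE, with CP190 RNAi in red and control RNAi in blue. Bars are means, error bars SD over 2 arrays, circles and triangles replicates 1 and 2, and the dotted line the random-sequence control. Fatp1 peaks at 3 h in both arms (12954 to 13859), and NaPi-III is lowest at 48 h in both (3949 to 4338).

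NaPi-III had overlapping levels at 0 h and 3 h and was lower on the 48 h arrays. In CP190 RNAi cells its intensity was 8019 and 8492 at 0 h, 8734 and 9067 at 3 h, and 4213 and 4113 at 48 h. In control RNAi cells it was 8097 and 10335 at 0 h, 8979 and 7780 at 3 h, and 4338 and 3949 at 48 h. All 4 of the 48 h arrays lay below all 8 of the others, with no overlap, while the 0 h and 3 h arrays overlapped. NaPi-III stood above 71.1 to 73.1% of transcripts at 48 h, against 84.8 to 88.3% at 0 h and 83.7 to 86.4% at 3 h.

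At 48 h the log2 change of NaPi-III from 0 h was -0.99 ± 0.12 (SE) in CP190 RNAi cells, or 1.98-fold lower. It was -1.14 ± 0.12 in control RNAi cells, or 2.21-fold lower. Without control 0 h replicate 1 the control value was -1.32, and without control 0 h replicate 2 it was -0.97. Measured from 3 h instead, which uses no 0 h array, the change was -1.10 ± 0.12 in CP190 RNAi cells and -1.01 ± 0.12 in control RNAi cells.

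The early NaPi-III change was small and had no settled sign. It was 0.11 ± 0.12 in CP190 RNAi cells and -0.13 ± 0.12 in control RNAi cells. By replicate number it was 0.12 and 0.09 in CP190 RNAi cells, and 0.15 and -0.41 in control RNAi cells. The last of these sets control 3 h replicate 2, at 7780, against control 0 h replicate 2, at 10335 the highest NaPi-III value of the series. Without control 0 h replicate 2 the control change was 0.05, and without control 0 h replicate 1 it was -0.31. Without control 3 h replicate 2 it was -0.03.

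Ordered by mean intensity, Fatp1 fell into 2 tiers. The upper tier was control RNAi at 3 h (13406 ± 640, SD, n = 2) and CP190 RNAi at 3 h (13042 ± 116), whose arrays overlapped. The lower tier ran from control RNAi at 48 h (6483 ± 496) through CP190 RNAi at 48 h (5745 ± 709) and CP190 RNAi at 0 h (5601 ± 216) to control RNAi at 0 h (5405 ± 1180). Each neighbour in the lower tier overlapped the next, and the gap between the tiers was the only place where neighbouring groups did not overlap.

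NaPi-III likewise fell into 2 tiers, divided at 48 h. Control RNAi at 0 h came first (9216 ± 1582), then CP190 RNAi at 3 h (8900 ± 236), control RNAi at 3 h (8379 ± 847) and CP190 RNAi at 0 h (8255 ± 335), each overlapping the next. The lower tier held CP190 RNAi at 48 h (4163 ± 70.5) and control RNAi at 48 h (4143 ± 275), which also overlapped. For both genes the order within a tier is therefore not settled by 2 arrays a group.

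The replicates of Fatp1 were somewhat more uneven than those of other transcripts of its level. Its pooled replicate SD was 0.16 on the log2 scale, larger than in 75.7% of the 1004 transcripts whose mean log2 intensity over the 12 arrays was within 0.25 of its own (6396 to 9045 in intensity). Replicate 2 was above replicate 1 in 6 of 6 groups. For NaPi-III the SD was 0.13, larger than in 55.7% of its 1098 neighbours in level (5697 to 8057), and replicate 2 was higher in 3 of 6 groups.

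Set against those neighbours in level, the early rise of Fatp1 was far out and the late fall of NaPi-III less so. Of the 1004 transcripts of similar level, 5 (0.498%) rose as far as Fatp1 at 3 h in CP190 RNAi cells, and likewise 5 (0.498%) in control RNAi cells. With level taken from the control 0 h arrays alone the control share was 0.185%. The middle 90% of them changed by -0.21 to 0.21 in CP190 RNAi cells and by -0.22 to 0.18 in control RNAi cells. At 48 h Fatp1 lay inside the middle 90% in both arms, which by then was much wider (-0.82 to 0.72 in CP190 RNAi and -0.80 to 0.75 in control RNAi).

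For NaPi-III, 30 of 1098 transcripts of similar level (2.73%) fell as far at 48 h in CP190 RNAi cells and 15 (1.37%) in control RNAi cells. With level taken from the control 0 h arrays alone the control share was 2.29%. The middle 90% of them ran from -0.80 to 0.76 in CP190 RNAi cells and from -0.77 to 0.78 in control RNAi cells. At 3 h NaPi-III lay inside the middle 90% in both arms. Since both genes were picked for these changes, their place far out is how they were chosen and not a finding about them.

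**Figure D2:**
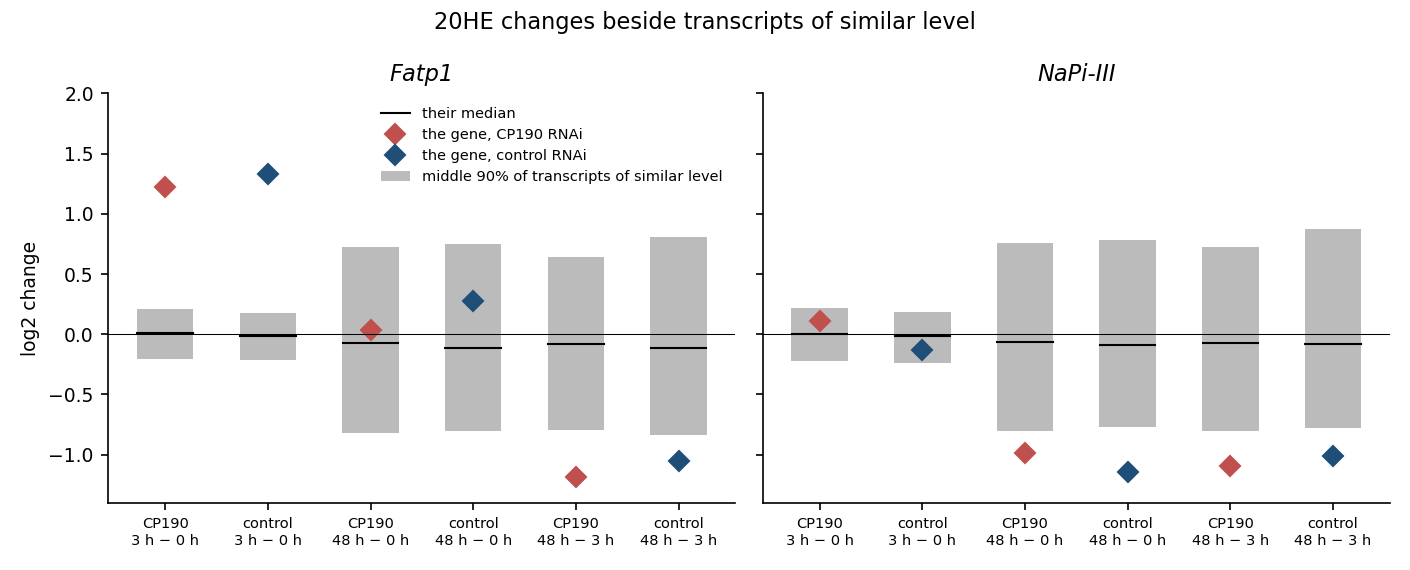
Log2 change with 20HE of Fatp1 (left) and NaPi-III (right), red diamonds for CP190 RNAi and blue for control RNAi, beside the middle 90% (grey) and median (black line) of 1004 and 1098 transcripts of similar level. Fatp1 lies outside the grey range at 3 h and back inside it at 48 h, and NaPi-III lies inside it at 3 h and below it at 48 h.

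Most strong early risers of a similar level were further above 0 h at 48 h than Fatp1. The 5 neighbours in level that rose at least as far at 3 h in both arms were 0.05 to 2.35 above 0 h at 48 h in CP190 RNAi cells (median 1.53), where Fatp1 was at 0.03. In control RNAi cells they had changes of -0.22 to 1.98 (median 0.78), where Fatp1 was at 0.28. Thus 5 of 5 were further above their own 0 h level than Fatp1 in CP190 RNAi cells, and 4 of 5 in control RNAi cells. The lowest of the 5 in CP190 RNAi cells was hardly apart, at 0.05 against 0.03 for Fatp1 (SE 0.13). Over the whole table, 29 of the other 16636 transcripts rose as far at 3 h in both arms. Of these, 1 was also no further above 0 h than Fatp1 at 48 h in both. The limits were the estimates of Fatp1 itself, so near misses were not counted. FBtr0084289 rose by 1.47 in control RNAi cells and by 1.18 in CP190 RNAi cells, where Fatp1 rose by 1.22. Its 48 h changes were 0.10 in control RNAi and -0.40 in CP190 RNAi. The control 48 h limit of 0.28 ran from 0.05 to 0.50 without single control 0 h arrays.

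The 1 transcript within both limits, FBtr0087310, was singled out after its values were seen and has no gene name in the tables used. Its intensity in CP190 RNAi cells was 1954 ± 27.1 at 0 h, 5164 ± 415 at 3 h and 1366 ± 64.9 at 48 h (SD, n = 2). In control RNAi cells it was 1105 ± 109 at 0 h, 5675 ± 557 at 3 h and 798 ± 54.8 at 48 h. It rose further than Fatp1 in both arms and ended below its own starting level.

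A late drop with little early change was found in other transcripts besides NaPi-III. In both arms at once, 13 of its 1098 neighbours in level (1.18%) and 119 of the other 16636 transcripts (0.715%) fell at least as far at 48 h. Of these, 6 neighbours (0.546% of the 1098) and 34 transcripts of the whole table (0.204% of the 16636) also had 3 h changes no larger in size than those of NaPi-III in both arms. The limits were the estimates of NaPi-III itself, so near misses were not counted. At 3 h they were no larger than their own error, at 0.11 ± 0.12 (SE) in CP190 RNAi cells and -0.13 ± 0.12 in control RNAi cells, so these counts are loose.

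**Figure D3:**
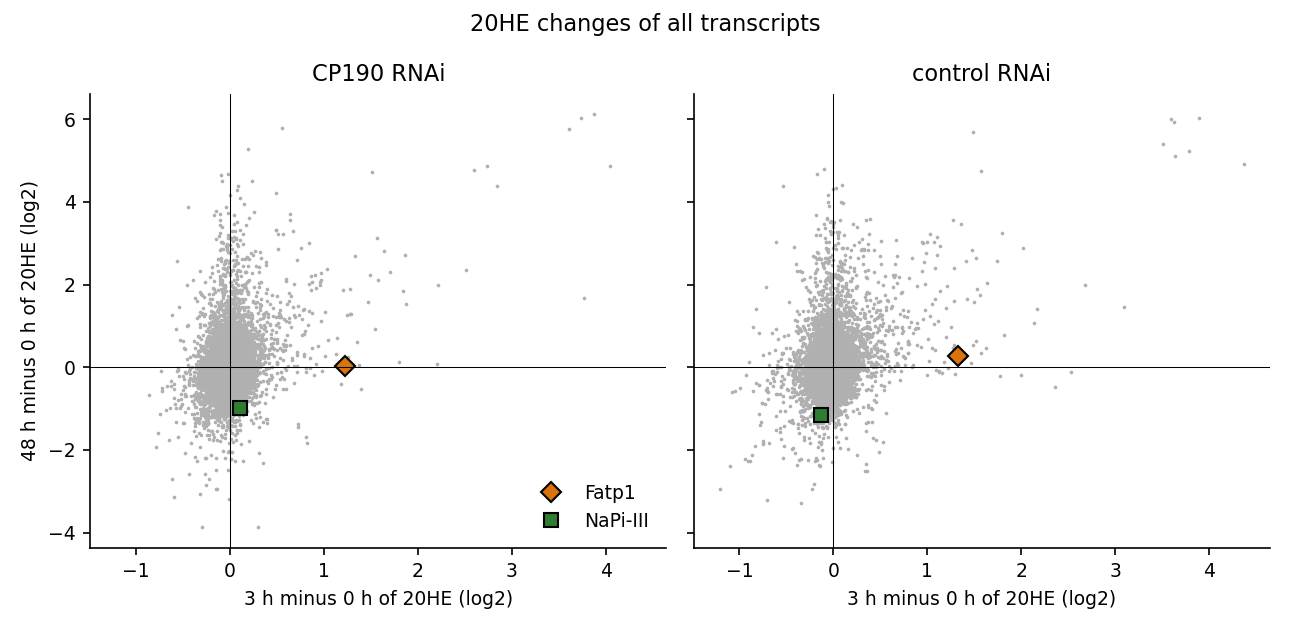
Log2 change at 48 h against log2 change at 3 h of 20HE, each from 0 h of the same arm, for all 16637 transcripts (grey) in CP190 RNAi (left) and control RNAi cells (right). Fatp1 (orange diamond) lies far right near the horizontal axis, at 1.22 and 0.03 in CP190 RNAi and 1.33 and 0.28 in control RNAi; NaPi-III (green square) lies near the vertical axis about 1 below zero.

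For comparison, 14 other transcripts had a gene name. Their 3 h changes ran from -0.27 to 0.17 in CP190 RNAi cells and from -0.24 to 0.15 in control RNAi cells. Their 48 h changes ran from -0.71 to 0.39 in CP190 RNAi cells and from -0.62 to 0.26 in control RNAi cells. The lower end at 48 h was sle, a nucleolar protein gene, and the upper end was mio, a regulator of TORC1 signalling, in both arms. None of the 14 reached a change of 1 in either arm at either time, but some moved further than NaPi-III at 3 h or than Fatp1 at 48 h. In CP190 RNAi cells the 48 h change of NaPi-III, -0.99, did not reach 1 in size either. The transporters were picked for their large changes, so their distance from the 14 follows from the choice and is not a finding. The changes for which the transporters were picked were also larger in size than those of most of all transcripts. For Fatp1 at 3 h, 99.8% of all had a smaller change in CP190 RNAi cells (1.22 for Fatp1) and 99.8% in control RNAi cells (1.33). For NaPi-III at 48 h, 94.6% had a smaller change in CP190 RNAi cells (-0.99 for NaPi-III) and 96.0% in control RNAi cells (-1.14).

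The transcripts whose profile over the 12 arrays most resembled each transporter were looked up among 1371 that spanned at least 1 on the log2 scale and lay above background in every group. For Fatp1, Pearson's r was highest for FBtr0273371 (0.95) and FBtr0084289 (0.95), and 8 transcripts had r over 0.9. FBtr0273371 averaged 1230, 2157 and 1140 at 0, 3 and 48 h in CP190 RNAi cells, against 1106, 2593 and 1087 in control RNAi cells. FBtr0084289 averaged 3227, 7302 and 2453 in CP190 RNAi cells, against 2449, 6689 and 2590 in control RNAi cells. Both thus peaked at 3 h and were back near or below their starting level at 48 h.

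No transcript of the 1371 mirrored Fatp1 as closely. The lowest correlations were those of FBtr0077311 (-0.81) and FBtr0071079 (-0.74), and 0 transcripts were under -0.9. FBtr0077311 had 3 h changes of -0.86 in CP190 RNAi cells and -0.99 in control RNAi cells, and 48 h changes of -0.67 in CP190 RNAi cells and -0.50 in control RNAi cells.

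For NaPi-III, 214 of the 1371 candidates had r over 0.9 and 328 had r under -0.9. The closest was FBtr0082150 (0.98), at 6175, 6445 and 3209 for 0, 3 and 48 h in CP190 RNAi cells, against 7164, 6476 and 3240 in control RNAi cells. Next came FBtr0085110 (0.98), which dropped further, with 48 h changes of -2.05 in CP190 RNAi cells and -1.99 in control RNAi cells. The most opposed were FBtr0079419 (-0.99), with 48 h changes of 1.11 in CP190 RNAi and 1.27 in control RNAi, and FBtr0112609 (-0.99), with 1.91 and 1.90.

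These correlations describe likeness over 12 arrays that every transcript shares. They turn mainly on 1 step, the 3 h arrays against the rest for Fatp1 and the 48 h arrays against the rest for NaPi-III. Between the 2 transporters themselves r was 0.39.

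**Figure D4:**
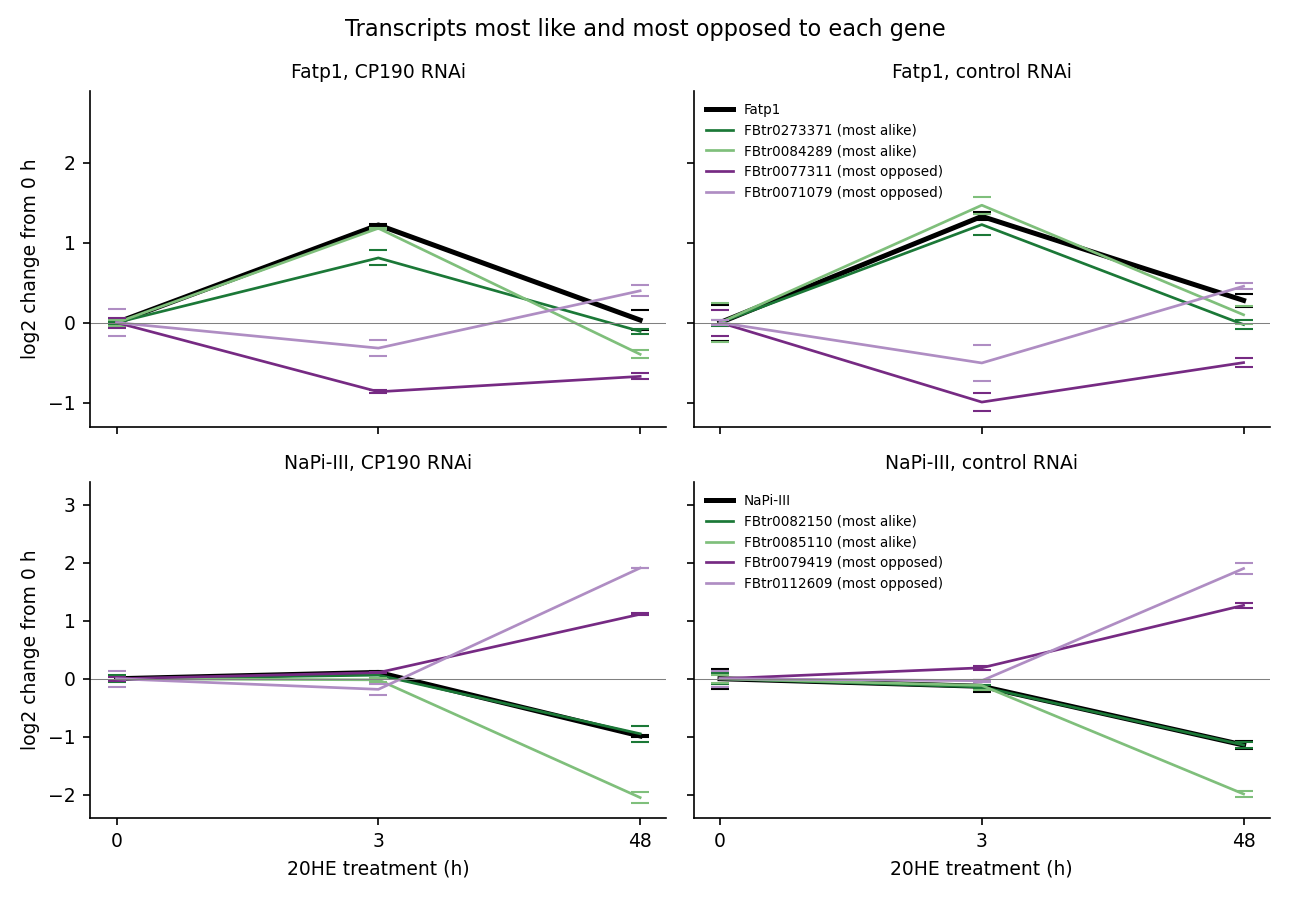
Log2 change from the 0 h mean of the same arm for Fatp1 (top) and NaPi-III (bottom, black lines) with the transcripts of highest (green) and lowest (purple) correlation to each; CP190 RNAi left, control RNAi right, lines through means and ticks for each of 2 arrays. The green lines peak at 3 h with Fatp1 and drop at 48 h with NaPi-III, and the purple lines of NaPi-III climb at 48 h.

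Whether either transporter differed after RNAi against CP190 was tested at each time, as the mean over the 3 times, and as a difference of the hormone responses. Across these 12 tests (6 a gene), limma with Benjamini-Hochberg adjustment over 16637 transcripts called 0, and 0 had an unadjusted p under 0.05 (lowest 0.170). The same tests called 7.34% of all transcripts at 0 h, 6.21% at 3 h, 5.19% at 48 h and 19.9% for the mean over times. They called 2.18% for the difference of 48 h responses and 0% for the difference of 3 h responses. At the last of these, 403 transcripts had an unadjusted p under 0.05, and the fit with the replicate number as a block called 4 transcripts, neither transporter among them.

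For Fatp1 the difference of CP190 RNAi from control RNAi was 0.07 at 0 h (95% interval -0.23 to 0.36, limma adjusted p = 0.835). It was -0.04 at 3 h (-0.33 to 0.26, limma adjusted p = 0.921) and -0.18 at 48 h (-0.47 to 0.12, limma adjusted p = 0.621). The arrays of the arms overlapped at all 3 times. By replicate number the 48 h difference was -0.23 and -0.13, lower in CP190 RNAi in both. Averaged over the times it was -0.05 (-0.22 to 0.12, limma adjusted p = 0.738), and an exact permutation of the arm labels within times, two-sided, gave p = 0.611, where 0.00926 is the smallest the design allows. With labels exchanged only within pairs of the same time and replicate number, a choice made after seeing the data, the exact permutation p was 0.563 (smallest possible 0.0313), and CP190 RNAi was lower in 4 of 6 pairs.

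The Fatp1 response at 3 h differed between the arms by -0.11 (95% interval -0.53 to 0.31, limma adjusted p = 0.9999). At 48 h the responses differed by -0.25 (-0.66 to 0.17, limma adjusted p = 0.793). By replicate number the 48 h difference was -0.48 and -0.01, so it was seen in the replicate 1 arrays, which include the low control 0 h value of 4571, and hardly in the replicate 2 arrays.

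For NaPi-III the difference of CP190 RNAi from control RNAi was -0.15 at 0 h (95% interval -0.40 to 0.10, limma adjusted p = 0.532). It was 0.09 at 3 h (-0.16 to 0.34, limma adjusted p = 0.760) and 0.01 at 48 h (-0.24 to 0.26, limma adjusted p = 0.987). The arms overlapped at each time here too. The mean over times was -0.02 (-0.16 to 0.13, limma adjusted p = 0.911), with p = 0.833 in the exact permutation test, two-sided, and 0.719 within pairs, where CP190 RNAi was lower in 4 of 6.

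The NaPi-III responses differed between the arms by 0.24 at 3 h (95% interval -0.12 to 0.60, limma adjusted p = 0.9999) and by 0.16 at 48 h (-0.20 to 0.52, limma adjusted p = 0.882). By replicate number the values were -0.03 and 0.50 at 3 h and -0.03 and 0.34 at 48 h. Both were seen in the replicate 2 arrays and hardly in the replicate 1 arrays. The replicate 2 arrays include the high control 0 h value of 10335 and the low control 3 h value of 7780. Without control 0 h replicate 2 the difference of 3 h responses was 0.06, and without control 3 h replicate 2 it was 0.14. The p-values miss the threshold and do not show that the arms respond alike. The intervals give the differences left possible by the fit without the replicate number. With the replicate number as a block, the SE of a difference at a single time was 0.10 in place of 0.13 for Fatp1. For NaPi-III it was 0.11 in place of 0.12. The Fatp1 difference at 48 h then had a limma adjusted p of 0.319.

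**Figure D5:**
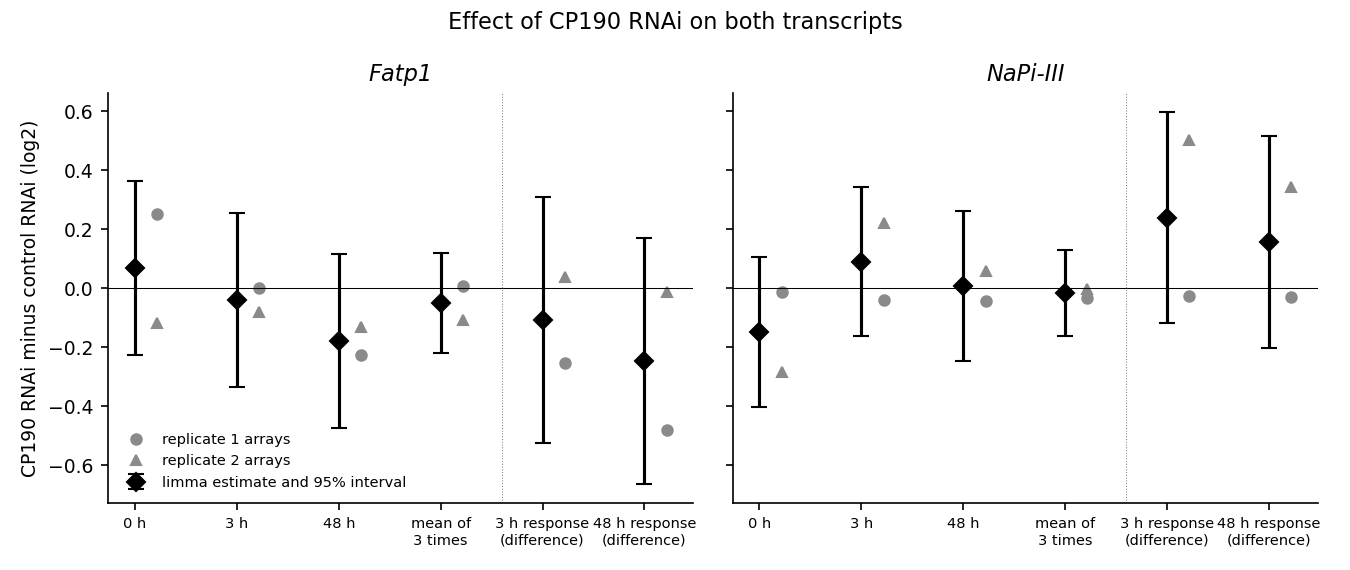
CP190 RNAi minus control RNAi on the log2 scale for Fatp1 (left) and NaPi-III (right), at each time, as the mean over 3 times and, right of the dotted line, as the difference of the hormone responses. Diamonds with bars are limma estimates with 95% intervals, and grey circles and triangles the values from the replicate 1 and replicate 2 arrays; every interval includes 0.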

How the data were processed

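The deposited intensity values are linear, and the authors made them with RMA, as the submitters' processing notes state. RMA corrects background, equalises array distributions and summarises the probes of a transcript. Version, annotation and build were not given in the sources used here. Log2 intensities were fitted here with limma 3.58.1 in R 4.3.3 as 6 group means over 12 arrays (6 residual degrees of freedom), with Benjamini-Hochberg adjustment over 16637 transcripts and a threshold of 0.05. The fit was tested on simulated data with independent noise on each array, which leaves out the shared replicate differences described below. The random-sequence row was left out of tests. No pair of arrays was identical. The labels' replicate numbers pair the samples, since replicate differences correlated by 0.147 to 0.608 over 15 pairs of groups; the labels do not say what they share, and p-values measure the spread between these samples.

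Names come from the synonyms of the RefSeq gene table (GCF_000001215.4), which held 44 of the identifiers, 16 of them for 1 gene only. Of 65 genes in 6 lists (fatty acid uptake, lipid metabolism, lipoproteins, phosphate transport, ecdysone and insulators), rows were named only for the 2 transporters, and for 0 of 18 cell type markers, so no list was counted. Named transcripts are the transporters and, by rule, the 2 highest and 2 lowest correlations with each, plus list members; FBtr0087310, sle and mio were added after their values were seen. The transporters, lists and rules were chosen with earlier results of these data known. Sequences and coordinates were not used here. Alternatives were the replicate block, centring, quantile normalisation, subtraction of the random control, a filter on dim transcripts, fitting only the arrays compared, a trended robust prior, and each array left out in turn.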

Additional observations from a re-analysis of the deposited data

How the results depend on the processing

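Across 226 refits of the 12 tests of CP190 RNAi under the alternatives, the replicate block among them, 0 were past the threshold for Fatp1 or NaPi-III; with the replicate block the mean CP190 difference was -0.05 for Fatp1 and -0.02 for NaPi-III. Of the 12 differences, 9 turned sign under some alternative. For NaPi-III at 48 h the value turned to -0.0013 after centring each array. Leaving out single arrays gave, for Fatp1, -0.16 to 0.29 at 0 h, -0.088 to 0.0097 at 3 h, -0.12 to 0.025 for the mean and -0.33 to 0.12 for the 3 h responses. For NaPi-III it gave -0.32 to 0.027 at 0 h, -0.013 to 0.19 at 3 h, -0.059 to 0.076 at 48 h, -0.075 to 0.042 for the mean and -0.019 to 0.33 for the 48 h responses. The other 3 kept 1 sign under all 19 alternatives but moved by over 1.5-fold without single arrays: Fatp1 at 48 h (-0.30 to -0.05), its 48 h responses (-0.47 to -0.02) and the NaPi-III 3 h responses (0.06 to 0.42). The hormone changes in control RNAi cells moved by over the replicate SD only without a control 0 h array, to 1.10 to 1.55 at 3 h and 0.053 to 0.50 at 48 h for Fatp1, and to -0.31 to 0.046 and -1.32 to -0.97 for NaPi-III. Subtracting the random control gave 1.29 (CP190) and 1.40 (control) for the Fatp1 rise. With level taken from the control 0 h arrays, 2.29% in place of 1.37% of similar transcripts fell as far as NaPi-III and 0.185% in place of 0.498% rose as far as Fatp1, which was 0.251% with a level window of 0.5. Counts over all transcripts with the replicate block were 2614 in place of 1221 at 0 h, 2091 in place of 1033 at 3 h, 1654 in place of 863 at 48 h, 4 in place of 0 for the 3 h responses and 725 in place of 363 for the 48 h responses. With no other arrays in the fit the 0 h count was 553. Subtracting the random control gave 567 at 48 h, 5 for the 3 h and 177 for the 48 h responses. Leaving out arrays gave as few as 537 at 0 h, 460 at 3 h, 483 at 48 h and 192 for the 48 h responses. The cause of these shifts was not tested. The number of arrays limits the precision.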
